A study of Mus musculus with 12 samples.

Results

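The 6 mouse actin genes and the 4 tropomyosin genes (Acta1, Acta2, Actc1, Actb, Actg1, Actg2, Tpm1, Tpm2, Tpm3 and Tpm4) were followed in hearts that lack Med30, a subunit of the Mediator complex. The genes were chosen by symbol as the complete gene families of the actin filament and of the tropomyosin that lies along it, and all 10 were found among the 20775 genes of both deposited tables. The libraries came from embryonic hearts at E10.5 and from cardiomyocytes of mice 3 months of age, 4 weeks after tamoxifen (TAM), with 3 samples in each of 4 groups, all on a C57BL/6 background. The E10.5 cKO hearts were Tnnt-Cre; Med30 f/f, and the adult icKO cells carried αMHC-MerCreMer; Med30 f/f. Ctrl samples, labelled wild type, were Med30 f/f without Cre according to the study's methods, and adult Ctrl mice received TAM as well. Both Cre drivers act in cardiomyocytes, so other cells of the embryonic heart keep Med30. No sequenced group carried Cre alone, and an effect of Cre on these RNA levels cannot be told apart from the loss of Med30. The study reports no deaths or loss of heart function in TAM-treated αMHC-MerCreMer mice without a floxed allele, which are not among these samples. The adult samples are labelled heart as their source, while the protocol describes collected cardiomyocytes.

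Actin polymerises into thin filaments. Actc1 encodes cardiac α-actin and Acta1 skeletal α-actin, the pair of striated muscle actins, and Acta1 is known as a fetal gene that the stressed adult heart can express again. Acta2 and Actg2 encode the smooth muscle actins, and Acta2 is also made by the early embryonic heart tube. Actb and Actg1 encode the cytoplasmic actins of nearly all cells. Tropomyosin is a coiled coil that runs along the filament and, in striated muscle, gates the binding of myosin together with troponin. Tpm1 is the main tropomyosin gene of the mouse heart, Tpm2 is prominent in slow skeletal and smooth muscle, and Tpm3 and Tpm4 make mostly cytoskeletal forms outside skeletal muscle. Serum response factor (SRF), which binds a short element called the CArG box, is a known activator of muscle actin genes.

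The actin genes are so alike in coding sequence that their levels rest on reads being told apart, and the first 60 coding bases of each are therefore shown (GENCODE M21 transcripts on GRCm38, 5′ to 3′). Capitals mark bases that differ from Actc1 in the alignment of the whole coding sequences.
Actc1: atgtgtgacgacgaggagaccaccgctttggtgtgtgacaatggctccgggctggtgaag
Acta1: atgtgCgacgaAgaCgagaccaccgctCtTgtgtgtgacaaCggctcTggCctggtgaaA
Acta2: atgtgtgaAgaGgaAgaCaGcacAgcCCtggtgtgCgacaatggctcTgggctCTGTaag
Actg2: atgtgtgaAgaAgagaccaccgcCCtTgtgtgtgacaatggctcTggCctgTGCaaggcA
Actb: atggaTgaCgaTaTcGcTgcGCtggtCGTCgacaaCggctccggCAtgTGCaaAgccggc
Actg1: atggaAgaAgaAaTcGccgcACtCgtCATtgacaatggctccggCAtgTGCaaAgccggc
Of these 60 bases, 9 differed in Acta1, 11 in Actg2, 14 in Acta2, 17 in Actg1 and 19 in Actb. The lines are written without gaps, and bases that Actg2, Actb and Actg1 lack against Actc1 are neither marked nor counted. Their coding sequences have 1131, 1128 and 1128 bases, against 1134 in Actc1. Over the whole coding sequence, identity between Acta1 and Actc1 was 86.2%, the closest pair was Actb and Actg1 at 88.7%, and the least alike pairs stood at 81.5%. The tropomyosin coding sequences shared 61.7% to 74.3%. None of the 50-base windows of the Actc1, Actg2, Tpm1 and Tpm2 transcripts occurred in the transcript of another gene. For Acta2 the share of such windows was 0.353% and for Acta1 2.22%. It was 14.2% for Actb and 16.1% for Tpm4, and it reached 56.7% for Actg1, largely in processed pseudogenes, and 62.4% for Tpm3, largely in Tpm3-rs7. How reads with several matches were counted is not given in the sources used here, so levels of Actg1 and Tpm3 are uncertain. The genes lie on GRCm38 at chr2:114047282-114053548 (Actc1), chr8:123891769-123894751 (Acta1), chr19:34241090-34255590 (Acta2), chr6:83512905-83536265 (Actg2), chr5:142903115-142906754 (Actb) and chr11:120345690-120348542 (Actg1), all on the minus strand. Tpm1 (chr9:67022590-67049406) and Tpm2 (chr4:43514711-43523765) are on the minus strand, and Tpm3 (chr3:90072649-90100902) and Tpm4 (chr8:72134975-72153142) on the plus strand. Acta1, Actc1 and Tpm4 overlap an annotated gene on the opposite strand, and whether reads were counted by strand is not given in the sources used here.

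Med30 itself, the targeted gene, measured 10.6, 13.3 and 11.3 RPKM (a read count scaled to gene length and library size) in the E10.5 Ctrl hearts and 1.38, 2.02 and 1.004 RPKM in the cKO hearts. In the adult it measured 7.66, 7.45 and 7.66 RPKM in Ctrl and 3.81, 3.16 and 1.83 RPKM in icKO, so every knockout sample lay below every Ctrl sample. Depth, estimated from the steps of the low RPKM values, was 13.7 to 19.9 M reads per E10.5 library and 11.9 to 17.5 M reads per adult library. Over the genes tested, the median of the log2 fold changes was -0.13 at E10.5 and 0.57 at 4 weeks, where the 20 most abundant genes took 24.2% to 24.8% of all RPKM in Ctrl and 10.7% to 12.2% in icKO. Rescaling by median ratios brought these medians to -0.01 and 0.03. Adult values relative to that shift are therefore given beside those as deposited. The cardiomyocyte markers (8 genes) summed to 11865 to 12543 RPKM in adult Ctrl and 4487 to 5318 RPKM in icKO, a sum made up mostly of Myh6, Tnnt2 and Tnni3. Of these 8 markers 5 fell, whereas Actn2 (626 to 1139 RPKM) and Nkx2-5 (23.5 to 39.1 RPKM) rose, against 18.1% and 60.6% of all genes. Over the same samples the fibroblast markers (9 genes) summed to 5.34 to 9.11 and 61.6 to 88.7 RPKM, and the mural cell markers (9 genes) to 7.39 to 19.6 and 40.8 to 80.4 RPKM. At E10.5 the mural markers summed to 39.6 to 52.9 RPKM in Ctrl and 67.9 to 76.1 RPKM in cKO, while the erythroid markers (8 genes) spread over 241 to 787 and 381 to 2256 RPKM. The cardiomyocyte markers summed there to 2385 to 3272 RPKM in Ctrl and 1964 to 2699 RPKM in cKO. Of these 8 markers 0 rose and 0 fell, against 0.864% and 3.45% of all genes. The E10.5 fibroblast sums were 90.6 to 166 RPKM in Ctrl and 116 to 133 RPKM in cKO. Most of the mural sum was Mcam, the 1 of 5 tested that rose at E10.5 (30.0 to 51.3 RPKM), where 0.864% of all genes rose. Pdgfrb (3.35 to 4.39 RPKM), Notch3 (2.76 to 4.06 RPKM) and Cspg4 (7.67 to 9.33 RPKM) had higher means there without passing. Rgs5 (1.80 and 1.66 RPKM) and Higd1b (0.242 and 0.0367 RPKM, not tested) were not higher. Groups did not overlap for 3 of the 5 tested, against 29.1% of all genes. In adult cells 3 of 4 tested mural markers rose, against 60.6% of all genes, and Mcam went from 1.09 to 32.6 RPKM. Of those that rose, Pdgfrb (0.963 to 2.44 RPKM) was tested only because of its icKO level. In bulk samples, fewer cells of a type and less RNA per cell cannot be told apart.

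Of the 10 members, 9 passed the filter of a mean above 1 RPKM at each stage, and Actg2 did not. At E10.5, 2 members rose (adjusted p under 0.05), namely Acta1 and Tpm2, where 0.864% of all 10885 genes tested rose. Acta1 was the 1 member called higher, which also needs a log2 fold change above 1, against 0.239% of all genes. By limma, 0 members fell, against 3.45% of all genes, and at an unadjusted p under 0.05 the count was 1 (Actg1). At 4 weeks, 4 members rose (Actb, Tpm2, Tpm3 and Tpm4) and 3 fell (Actc1, Actg1 and Tpm1), where 60.6% of all 9517 genes tested rose and 18.1% fell. Tpm2, Tpm3 and Tpm4 were called higher (28.0% of all genes) and Actc1 and Actg1 called lower (8.45% of all genes). Tpm2 averaged 0.494 RPKM in adult Ctrl, under the filter, so only its icKO level brought it into that fit. With median-ratio scaling the background was far more even, with 34.3% of all genes higher and 34.0% lower at 4 weeks (called, 11.3% and 15.9%) and 2.46% and 2.60% at E10.5 (called, 0.322% and 0.377%). On that scale Tpm2 and Tpm3 rose and Actc1, Actg1, Acta2 and Tpm1 fell in adult cells, and Acta1 and Tpm2 rose at E10.5. Groups did not overlap for 5 of 9 members at E10.5 (29.1% of all genes) and for 7 of 9 at 4 weeks (80.8% of all genes).

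**Figure D1:**
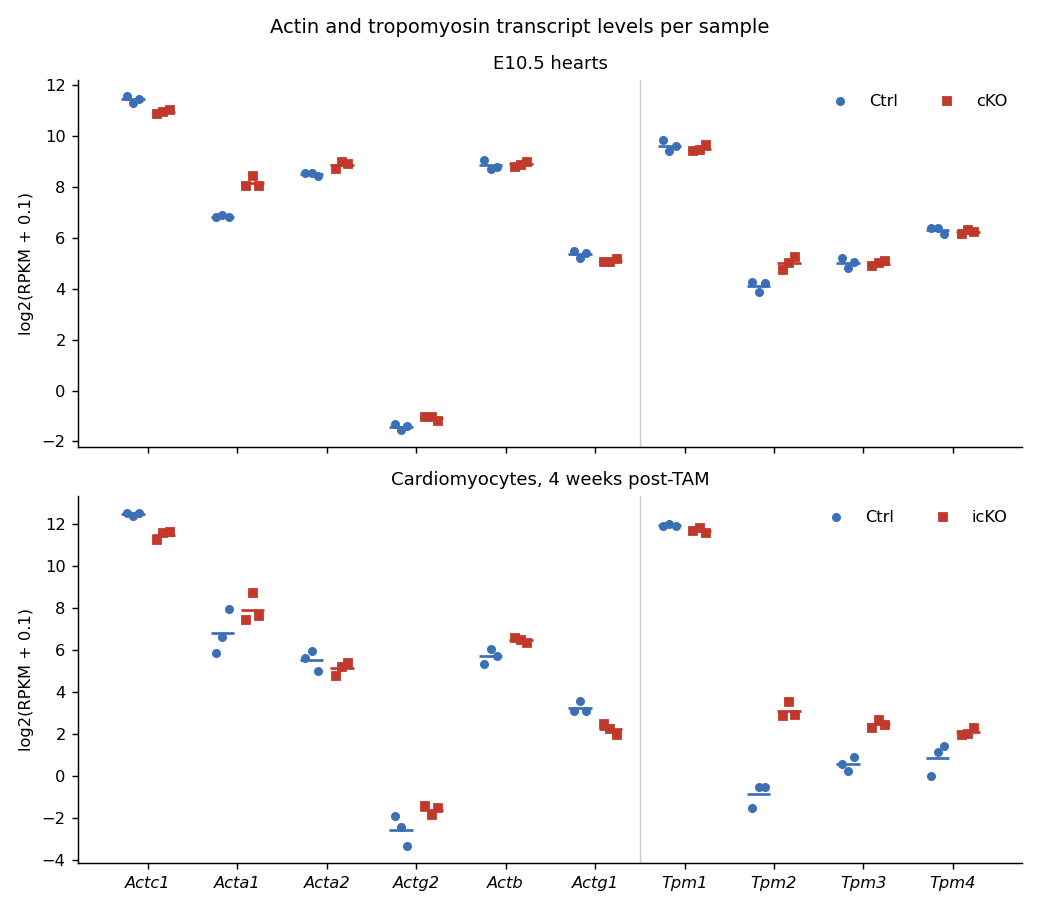
RPKM of the 10 genes in each sample on a log2 scale after adding 0.1, with E10.5 hearts above and adult cardiomyocytes below. Points are samples (3 per group) and short lines are group means. At E10.5 Acta1, Acta2, Actg2 and Tpm2 separate upward in cKO and Actc1 and Actg1 downward, whereas in icKO cells Actc1, Actg1 and Tpm1 separate downward and Actb, Tpm2, Tpm3 and Tpm4 upward in RPKM as deposited (Actc1 and Tpm1 turn upward with quantile normalisation).

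Among the striated actins, the embryonic cKO heart gained Acta1. Acta1 measured 112, 118 and 113 RPKM in the Ctrl hearts and 262, 342 and 260.45 RPKM in the cKO hearts. The groups lay far apart, and the cKO values spread more widely than the Ctrl values (114 ± 3.18 and 288 ± 46.6 RPKM, SD, n = 3). The mean was 2.53 times that of Ctrl, and the log2 fold change was 1.32 (SE 0.150, limma adjusted p = 0.00409), with an interval of 0.99 to 1.66. With any single sample left out it stayed between 1.19 and 1.39. Acta1 moved from rank 187 to rank 33 of all genes by mean RPKM.

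Actc1, the most abundant actin, measured 3016, 2504 and 2839 RPKM in the Ctrl hearts and 1846, 1989.7 and 2089 RPKM in the cKO hearts. All cKO values lay below all Ctrl values, at 0.709 times the Ctrl mean. The log2 fold change of -0.49 (SE 0.273, interval -1.11 to 0.12) did not pass (limma adjusted p = 0.301). The skeletal muscle markers (8 genes, among them Pax7 and Myod1, both at 0 in all E10.5 samples) summed to 18.7 to 19.9 RPKM in Ctrl and 10.8 to 19.7 RPKM in cKO.

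In adult cardiomyocytes it was Actc1 that changed beyond the spread. Actc1 measured 6016, 5415 and 6023 RPKM in Ctrl and 2409, 3077 and 3168 RPKM in icKO. No icKO sample came near the Ctrl range, and the mean went from 5818 ± 349 to 2885 ± 414 RPKM (SD, n = 3). The log2 fold change was -1.02 (SE 0.117, limma adjusted p = 4.34e-05), or -1.59 relative to that median shift. The call rested on the fold, which was -0.996 without Ctrl replicate 1, -0.995 without Ctrl replicate 3 and -0.90 without icKO replicate 1. Acta1 measured 57.7, 99.8 and 253 RPKM in Ctrl and 171, 421 and 197 RPKM in icKO. Ctrl replicate 3 lay above both of the lower icKO samples, so the groups overlapped. The log2 fold change of 1.10 (SE 0.504, interval -0.05 to 2.24) did not pass (limma adjusted p = 0.0721), and relative to the median it was 0.53. Without Ctrl replicate 3 it was 1.68 (limma adjusted p = 0.00251). The skeletal muscle markers summed to 847 to 929 RPKM in these Ctrl samples and 319 to 479 RPKM in icKO. Nearly all of that sum was Ckm, muscle creatine kinase, which cardiomyocytes also express (901 and 379.9 RPKM on average). Mylpf, a fast skeletal myosin light chain, averaged 0.289 RPKM in Ctrl and 1.59 RPKM in icKO. Quantile normalisation, which gives the same rank the same value in every library, put Actc1 at 0.07, because Actc1 ranked 3 in both adult groups.

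The proximal promoters of the striated actins and of Actg1 each held a CArG box in the 250 bases before the RefSeq start (GRCm38.p6, all on the minus strand, 5′ to 3′), and they are shown because these genes moved in different directions. Capitals mark the CArG box.
Acta1, chr8:123894776-123895025: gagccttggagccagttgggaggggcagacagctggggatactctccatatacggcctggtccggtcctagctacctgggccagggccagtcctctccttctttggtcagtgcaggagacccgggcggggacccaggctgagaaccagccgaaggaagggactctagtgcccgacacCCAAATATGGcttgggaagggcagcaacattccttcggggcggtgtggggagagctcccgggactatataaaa
Actc1, chr2:114052876-114053125: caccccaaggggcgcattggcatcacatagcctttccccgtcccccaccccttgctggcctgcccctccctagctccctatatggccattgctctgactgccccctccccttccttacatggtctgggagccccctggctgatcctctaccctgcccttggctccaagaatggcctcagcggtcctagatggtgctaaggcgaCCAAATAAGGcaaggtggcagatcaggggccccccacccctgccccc
Actg1, chr11:120348496-120348745: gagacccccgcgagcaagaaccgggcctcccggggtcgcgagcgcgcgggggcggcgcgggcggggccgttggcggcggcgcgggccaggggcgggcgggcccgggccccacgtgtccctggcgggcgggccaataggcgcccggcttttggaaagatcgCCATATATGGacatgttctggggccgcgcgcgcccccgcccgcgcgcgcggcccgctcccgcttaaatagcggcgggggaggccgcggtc
The box began 73 bases before the start in Acta1, 47 bases before it in Actc1 and 90 bases before it in Actg1. The CArG box equals its own reverse complement in form, so 1 search covers both strands. A box was present in 482 of 32851 promoter windows of this length (1.47%). The windows of Acta2 and of Tpm1, Tpm2, Tpm3 and Tpm4 held none, and Actb and Actg2 had no entry. RefSeq starts differ from the ends of the GENCODE genes given above. The windows of Actc1 and Tpm4 lay wholly inside the GENCODE gene, as did a further Tpm3 window at chr3:90079271-90079520. Those of Acta2, Tpm1 and Tpm2 lay mostly inside it, so these counts hold for the RefSeq start alone.

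Acta2, the main smooth muscle actin, stood at levels above those of Acta1 in the embryonic heart. Acta2 measured 378, 374 and 346 RPKM in the E10.5 Ctrl hearts and 422, 502 and 480.0 RPKM in the cKO hearts. Every cKO sample lay above every Ctrl sample, at 1.28 times the Ctrl mean. The log2 fold change of 0.35 (SE 0.163) did not pass (limma adjusted p = 0.227), although it passed at 0.53 and 0.50 when the scaling left out the 20 or the 200 most abundant genes (limma adjusted p = 0.0308 and 0.0394). In adult cells Acta2 measured 49.0, 63.5 and 31.9 RPKM in Ctrl and 27.6, 37.0 and 42.7 RPKM in icKO. The samples overlapped, with Ctrl replicate 3 inside the icKO range, and the log2 fold change was -0.39 (SE 0.241, limma adjusted p = 0.160). Relative to the median shift this was -0.96, and with median-ratio scaling Acta2 fell by 0.93 on the log2 scale (limma adjusted p = 0.00988). Without Ctrl replicate 3 the value was -0.66 (limma adjusted p = 0.00943). Myh11, a defining marker of mature smooth muscle, averaged 0.336 RPKM in adult Ctrl and 0.823 RPKM in icKO.

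Actg2, the enteric smooth muscle actin, was close to absent. Actg2 measured 0.304, 0.240 and 0.284 RPKM in E10.5 Ctrl and 0.391, 0.390 and 0.333 RPKM in cKO, which is about 5 to 9 reads a library. In adult cells it measured 0.173, 0.0870 and 0 RPKM in Ctrl and 0.271, 0.182 and 0.255 RPKM in icKO. The 0 of Ctrl replicate 3 allows up to 0.133 RPKM, the level of 3 reads in that library, counting error alone. No test was made for this gene.

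The cytoplasmic actins parted in the adult in RPKM as deposited. The level of Actg1 is uncertain, since 56.7% of its 50-base windows occur in other genes. Actb measured 40.2, 66.2 and 53.7 RPKM in Ctrl and 95.6, 89.2 and 81.2 RPKM in icKO. The groups did not overlap, and the log2 fold change was 0.76 (SE 0.162, limma adjusted p = 0.00206). That is 0.19 above the median of all genes, and with median-ratio scaling it was 0.22 and did not pass (limma adjusted p = 0.242). Actg1 measured 8.48, 11.99 and 8.57 RPKM in Ctrl and 5.51, 4.62 and 3.85 RPKM in icKO. Here every icKO sample was lower, with a log2 fold change of -1.04 (SE 0.172, limma adjusted p = 0.000453), or -1.60 relative to the median. It was -0.87 without Ctrl replicate 2 and -0.91 without icKO replicate 3, short of the fold of a call.

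At E10.5 neither cytoplasmic actin passed. Actb measured 529.9, 418 and 440.2 RPKM in Ctrl and 446, 469 and 512 RPKM in cKO, with full overlap and a log2 fold change of 0.04 (interval -0.35 to 0.44). Actg1 measured 44.2, 37.0 and 41.8 RPKM in Ctrl and 33.2, 33.2 and 35.7 RPKM in cKO. The cKO samples all lay lower, and the log2 fold change was -0.27 (SE 0.111, limma adjusted p = 0.186). With sample weights in the fit it was -0.31 and passed (limma adjusted p = 0.0315).

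Tpm1 carried most tropomyosin RNA at E10.5 and nearly all of it in the adult. Tpm1 measured 929, 685 and 773 RPKM in E10.5 Ctrl and 687, 698 and 806 RPKM in cKO, overlapping throughout (log2 fold change -0.12, interval -0.58 to 0.35). In adult cells it measured 3843, 4121 and 3885 RPKM in Ctrl and 3226, 3579 and 3110.4 RPKM in icKO. All icKO samples were lower, and Tpm1 fell by 0.26 on the log2 scale (SE 0.0859, limma adjusted p = 0.0205), or -0.83 relative to the median. The limma adjusted p was 0.0926 without Ctrl replicate 2, 0.0674 without Ctrl replicate 3 and 0.0857 without icKO replicate 3. Quantile normalisation put the change at 0.73 instead, since Tpm1 went from rank 5 to rank 1.

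Tpm2 was the member that rose at both stages. Tpm2 measured 19.1, 14.6 and 18.4 RPKM in E10.5 Ctrl and 26.7, 32.1 and 37.8 RPKM in cKO. The lowest cKO sample exceeded the highest Ctrl sample, with a log2 fold change of 0.88 (SE 0.155, limma adjusted p = 0.0231). The limma adjusted p was 0.0509 without Ctrl replicate 1, 0.0854 without Ctrl replicate 3 and 0.0750 without cKO replicate 2. Median-ratio scaling gave 1.001 and made it a call (limma adjusted p = 0.00697). In adult cells Tpm2 measured 0.256, 0.611 and 0.616 RPKM in Ctrl and 7.16, 11.4 and 7.44 RPKM in icKO. From near absence it reached 17.5 times the Ctrl mean, and the log2 fold change on the scale with 0.1 added was 3.92 (SE 0.297, limma adjusted p = 3.64e-06), or 3.35 relative to the median. The Ctrl mean of 0.494 RPKM lay under the filter of 1 RPKM, so Tpm2 entered this fit only through its icKO level. With no filter the limma adjusted p was 0.00149. Adult icKO cells nevertheless held less Tpm2 than E10.5 Ctrl hearts, whose mean was 17.4 RPKM against 8.65 RPKM, in tables normalised separately.

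Tpm3 and Tpm4, genes of cytoskeletal tropomyosins, rose in adult cells and did not pass at E10.5. Tpm3 measured 1.41, 1.11 and 1.77 RPKM in adult Ctrl and 4.82, 6.39 and 5.32 RPKM in icKO. The groups were clearly apart, with a log2 fold change of 1.89 (SE 0.187, limma adjusted p = 1.70e-05), or 1.32 relative to the median. Tpm4 measured 0.909, 2.10 and 2.604 RPKM in Ctrl and 3.87, 3.99 and 4.81 RPKM in icKO. Ctrl replicate 1 lay well below the other Ctrl samples, and the log2 fold change was 1.24 (SE 0.322, limma adjusted p = 0.00610), or 0.68 relative to the median. With median-ratio scaling it was 0.72 and did not pass (limma adjusted p = 0.0791), and without Ctrl replicate 1 it was 0.82. At E10.5 Tpm3 measured 36.7, 28.2 and 32.7 RPKM in Ctrl and 29.6, 32.1 and 33.5 RPKM in cKO. Tpm4 there measured 83.7, 84.4 and 71.1 RPKM in Ctrl and 70.7, 80.2 and 75.1 RPKM in cKO. Both overlapped, with log2 fold changes of -0.03 (interval -0.31 to 0.25) and -0.08 (interval -0.35 to 0.19), whose signs turned under each of the 4 other scalings. The rise of the minor tropomyosins in icKO came with higher summed fibroblast and mural markers in the same samples, and the part of those cells in the result was not tested.

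**Figure D2:**
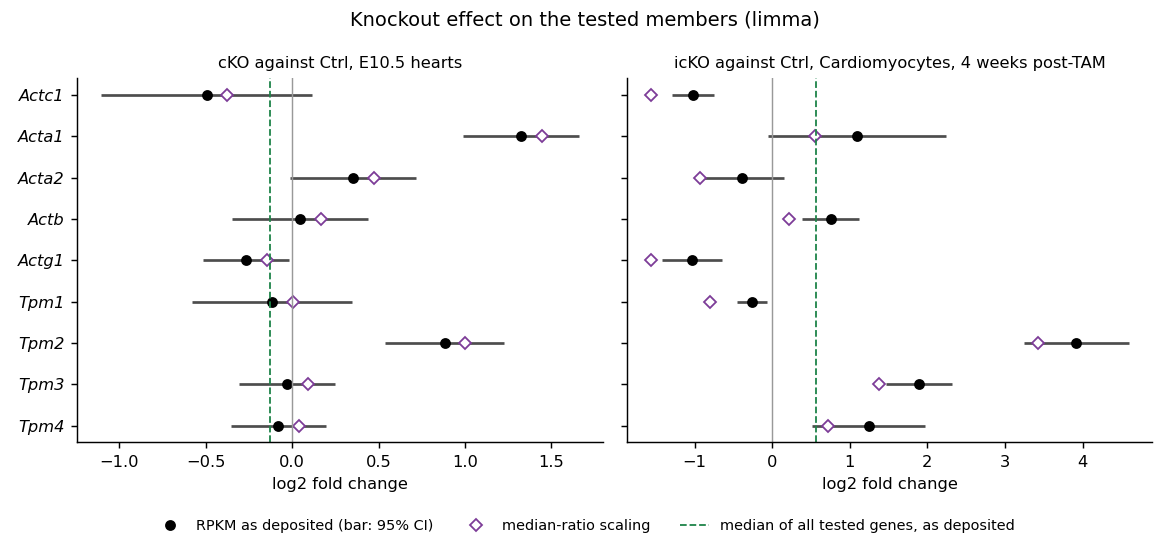
Log2 fold change of the 9 tested members in cKO hearts (left) and icKO cardiomyocytes (right). Filled points with bars are limma estimates with 95% confidence intervals, open diamonds the values after median-ratio scaling, and the dashed line the median of all tested genes (-0.13 and 0.57). On the right, Actc1, Actg1, Acta2 and Tpm1 lie left of the dashed line, and Tpm2 and Tpm3 lie right of it with their whole bars.

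A ratio within a sample is untouched by any constant factor between samples. With 3 samples against 3 the exact permutation test cannot go below p = 0.1, and after adjustment over the 10 ratios of a stage the smallest p was 0.167 at E10.5 and 0.143 at 4 weeks, so no ratio could pass. The log2 ratio of Acta1 to Actc1 was -4.75, -4.41 and -4.66 in E10.5 Ctrl and -2.82, -2.54 and -3.003 in cKO. In other words, 24.3 Actc1 RPKM stood against each Acta1 RPKM in Ctrl and 6.90 in cKO, a 3.53-fold difference of the ratio (log2 1.82, SE 0.168). Adult Ctrl cells had log2 ratios of -6.70, -5.76 and -4.58 and icKO cells of -3.81, -2.87 and -4.00. These groups stood apart too, with 51.2 Actc1 RPKM per Acta1 RPKM in Ctrl, 11.8 in icKO and a 4.34-fold difference (log2 2.12, SE 0.709). Both differences exceeded the pooled SD between samples, 0.206 and 0.868. The adult groups were thus apart for this ratio although they overlapped for Acta1 alone.

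Actb per Actc1 was higher in every knockout sample at both stages, 1.45-fold at E10.5 (log2 0.54, SE 0.0548) and 3.43-fold at 4 weeks (log2 1.78, SE 0.313), with no overlap. Acta2 per Actc1 was 1.80-fold higher at E10.5 (log2 0.85, SE 0.102), with the groups apart, whereas the adult groups overlapped (log2 0.63, SE 0.337). Quantile normalisation put that adult log2 difference at -0.92. Between the cytoplasmic actins, Actg1 per Actb was lower in every knockout sample, with log2 differences of -0.31 (SE 0.0616) at E10.5 and -1.79 (SE 0.141) at 4 weeks. Adult Ctrl cells held 5.43 Actb RPKM per Actg1 RPKM and icKO cells 18.8, where the uncertain level of Actg1 enters. Tpm2 per Tpm1 was 1.997-fold higher at E10.5 (log2 0.998, SE 0.106) and 18.1-fold higher at 4 weeks (log2 4.18, SE 0.352). With 1 added in place of 0.1, the adult log2 difference was 2.93. Adult Tpm3 and Tpm4 per Tpm1 were 4.43-fold and 2.83-fold higher without overlap, while at E10.5 both overlapped (log2 0.09 and 0.04). Tpm4 per Tpm3 overlapped at both stages.

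**Figure D3:**
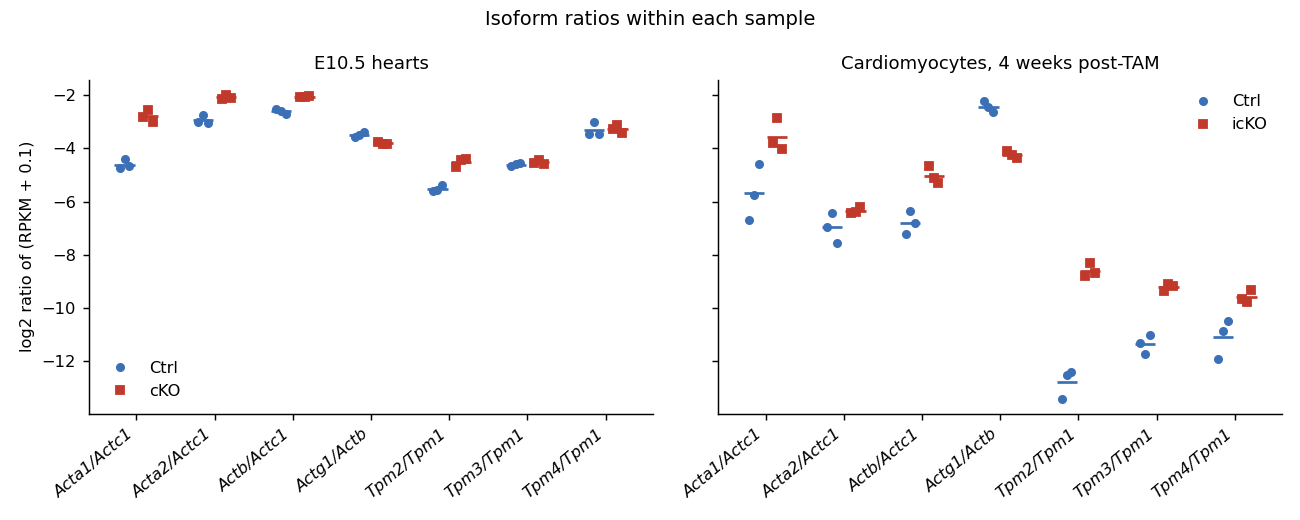
Log2 ratios of 7 isoform pairs (RPKM + 0.1) in each sample, with E10.5 hearts on the left and adult cardiomyocytes on the right. Points are samples (3 per group) and lines are group means. Acta1/Actc1, Actb/Actc1 and Tpm2/Tpm1 lie higher and Actg1/Actb lower in every knockout sample at both stages.

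As shares of the summed actin RPKM, Actc1 made up 73.9%, 72.6% and 75.1% in the E10.5 Ctrl hearts and 61.3%, 59.6% and 61.8% in the cKO hearts. The shares of 4 other actins were larger instead. Acta1 went from 3.04% ± 0.339 to 8.89% ± 1.28 (SD, n = 3), Acta2 from 9.76% ± 0.939 to 14.4% ± 0.537 and Actb from 12.2% ± 0.680 to 14.7% ± 0.560, each without overlap. Actg2, at 0.00731% and 0.0115%, was also apart. Actg1 stayed near 1.09% and 1.05%, with overlapping samples. Adult cells were almost wholly striated in their actin: Actc1 made up 97.5%, 95.7% and 94.6% in Ctrl and 88.9%, 84.8% and 90.7% in icKO. There Acta1 went from 2.22% ± 1.57 to 7.86% ± 3.26 and Actb from 0.888% ± 0.262 to 2.77% ± 0.660, again without overlap. Acta2 overlapped, at 0.806% and 1.09%. Exact permutation p was 0.1 for each share whose groups did not overlap, which is the smallest possible, and 0.144 or 0.130 after adjustment over the 13 shares of a stage.

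Among tropomyosins, the share of Tpm2 at E10.5 went from 1.88% ± 0.154 to 3.69% ± 0.359 (SD, n = 3) without overlap, while Tpm1 held 85.9% and 84.0% with overlapping samples. In adult cells Tpm1 kept 99.9% in Ctrl and 99.4% in icKO. The 3 minor genes thus stayed below 1% of the tropomyosin RPKM in icKO, at 0.258% for Tpm2, 0.165% for Tpm3 and 0.128% for Tpm4. Summed actin RPKM in adult cells was 6171, 5656 and 6370.2 in Ctrl and 2709, 3629.7 and 3493 in icKO. Summed tropomyosin RPKM was 3845, 4125 and 3889.5 in Ctrl and 3242, 3601 and 3128 in icKO. Both sums were lower in every icKO sample, and the difference was larger for actin, so that actin per tropomyosin RPKM was 1.37 to 1.64 in Ctrl and 0.836 to 1.117 in icKO. At E10.5 that quotient overlapped, at 3.82 to 4.25 in Ctrl and 3.55 to 3.96 in cKO.

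**Figure D4:**
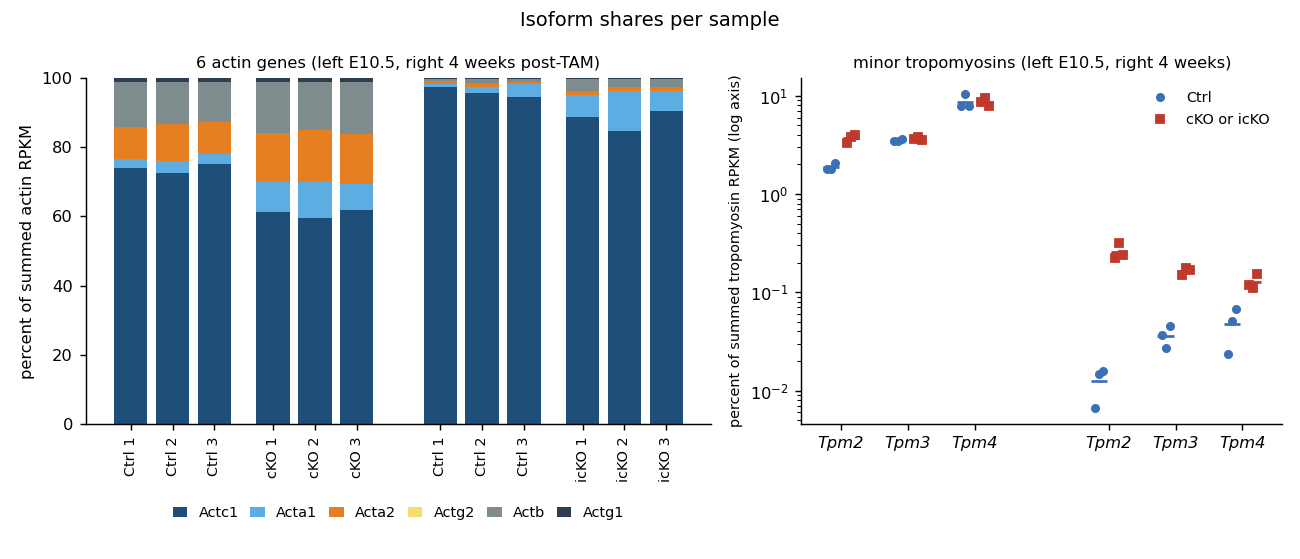
Left, the 6 actin genes as percent of their summed RPKM in each of the 12 samples (stacked bars, linear axis from 0). Right, Tpm2, Tpm3 and Tpm4 as percent of the summed tropomyosin RPKM on a log axis, with points for samples and lines for means (3 per group). Actc1 takes a smaller part of the bar in every knockout sample, and adult Tpm2 goes from 0.0124% to 0.258%.

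In order of mean RPKM, E10.5 Ctrl hearts ran Actc1, Tpm1, Actb, Acta2, Acta1, Tpm4, Actg1, Tpm3, Tpm2 and Actg2, and the samples of all neighbours were apart. In cKO hearts Tpm2 passed Tpm3, and the ranges of Actb and Acta2, of Actg1 and Tpm2 and of Tpm2 and Tpm3 overlapped. Adult Ctrl cells ran Actc1, Tpm1, Acta1, Actb, Acta2, Actg1, Tpm4, Tpm3, Tpm2 and Actg2, where Acta1, Actb and Acta2 overlapped with their neighbours, as did Tpm4 and Tpm3. In icKO cells Tpm1 (3305 RPKM) came before Actc1 (2885 RPKM) with overlapping ranges, and Tpm2 moved ahead of Tpm3, Actg1 and Tpm4. Tpm1 then ranked 1 of all genes in the table.

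The difference between the stages was tested as the adult knockout effect minus the E10.5 effect in a fit of all 12 samples, where 68.7% of 8909 genes passed and the median difference was 0.69. Tpm2 (3.04, SE 0.360, limma adjusted p = 8.50e-06), Tpm3 (1.92, SE 0.224) and Tpm4 (1.32, SE 0.368) were shifted upward in the adult. Tpm2 passed the adult filter of this fit, too, only through its icKO level. Actb was shifted by 0.71 (SE 0.225), close to the median of all genes, and Actg1 (-0.77, SE 0.211) and Acta2 (-0.75, SE 0.295) were shifted downward. Acta1 (-0.23, interval -1.51 to 1.05), Actc1 (-0.53, limma adjusted p = 0.0561) and Tpm1 (-0.14, interval -0.60 to 0.31) did not pass. With median-ratio scaling Actc1 (-1.19, limma adjusted p = 0.000174) and Tpm1 (-0.80, limma adjusted p = 0.000523) did pass, and Actb (0.053) and Tpm4 (0.68) no longer did. Actc1 also passed when the most abundant genes were left out of the scaling, with a pseudocount of 1, a filter above 5 RPKM, no trend or sample weights. Tpm1 also passed when those genes were left out, and was shifted upward by 0.60 with quantile normalisation. Stage, sample type and Cre driver cannot be told apart in this difference.

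The proteins that build and cap thin filaments gave the surroundings of these changes. Of the muscle filament list (23 genes, 18 tested at E10.5), 1 rose and 2 fell in cKO, against 0.864% and 3.45% of all genes. The called gene was Lmod1, a leiomodin of smooth muscle that nucleates actin, where 0.239% of all genes were called higher. Lmod1 measured 2.18 ± 0.438 RPKM in Ctrl and 6.27 ± 2.14 RPKM in cKO (SD, n = 3, log2 fold change 1.45). In adult cells 16 of 21 tested rose and 5 fell (60.6% and 18.1% of all genes), with a median log2 fold change of 0.85 against 0.57 for all genes. As deposited 8 were called higher and 3 lower (28.0% and 8.45% of all genes). With median-ratio scaling 2 were called higher and 5 lower (11.3% and 15.9% of all genes). Nrap, an actin-anchoring protein of the intercalated disc, went from 169 to 664 RPKM (log2 fold change 1.97). Lmod2, the cardiac leiomodin that elongates thin filaments, went from 489 to 159 RPKM (-1.62). Tmod4, a tropomodulin that caps pointed ends, went from 11.97 to 0.444 RPKM (-4.61). Neb, the filament ruler of skeletal muscle, rose from 0.987 to 3.29 RPKM although its samples overlapped (1.65), and it was tested only because of its icKO level.

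General actin assembly genes (34 genes) showed 1 higher and 1 lower member of 34 tested at E10.5, against 0.864% and 3.45% of all genes. In adult cells 28 of 30 tested rose and 1 fell, against 60.6% and 18.1% of all genes, with a median log2 fold change of 1.62. Called higher were 22 of the 30, against 28.0% of all genes, and 16 with median-ratio scaling, against 11.3%. Actn1, a non-muscle α-actinin, went from 3.18 ± 0.295 to 73.3 ± 12.9 RPKM (SD, n = 3), and Flna, a filamin crosslinker, from 1.44 ± 0.429 to 18.8 ± 1.52 RPKM. Cfl1, the non-muscle cofilin that severs filaments, went from 10.6 to 76.8 RPKM, and Actn4 from 5.68 to 31.7 RPKM. Their log2 fold changes were 4.47, 3.66, 2.83 and 2.49. These genes are abundant in fibroblasts and other non-muscle cells, whose markers were higher in the same samples, and their part in the result was not tested.

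Smooth muscle contractile genes (12 genes) were counted beside Acta2. At E10.5, 3 of 10 tested rose and none fell, where 0.864% of all genes rose and 3.45% fell. Called higher were 2, Lmod1 and Cnn1, against 0.239% of all genes. Cnn1, calponin 1, went from 52.3 ± 5.71 to 128 ± 12.8 RPKM (SD, n = 3, log2 fold change 1.29). In adult cells 7 of 9 tested rose and 2 fell, all 9 beyond a log2 fold change of 1 in size, where 28.0% of all genes were called higher and 8.45% lower. Among those that rose, Cnn1 and Cald1 averaged under 1 RPKM in Ctrl and were tested only because of their icKO level. Cnn1 went from 0.167 ± 0.0920 to 254 ± 75.2 RPKM (log2 fold change 9.91), Cald1 from 0.569 to 6.47 RPKM (3.34), Cnn2 from 7.58 to 45.6 RPKM (2.58) and Myl9, a myosin light chain, from 3.15 to 17.1 RPKM (2.33). The lower genes, named here after their values were seen, were Smtn, smoothelin (15.03 to 3.35 RPKM, -2.18), and Synpo2, an actin-binding protein (17.1 to 4.60 RPKM, -1.91). Over the same samples Acta2 had a log2 fold change of -0.39.

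Of the troponins (8 genes), the partners of tropomyosin, 2 of 7 tested fell at E10.5, against 3.45% of all genes. They were the fast skeletal forms Tnni2 (11.7 to 1.10 RPKM, log2 fold change -3.26) and Tnnt3 (3.57 to 1.29 RPKM, -1.44). In adult cells 2 of 5 tested rose and 3 fell, against 60.6% and 18.1% of all genes. The count called lower was 2 as deposited (8.45% of all genes) and 4 with median-ratio scaling (15.9% of all genes). Tnnt3 went the other way there, from 0.118 to 7.88 RPKM (5.27), and was tested only because of its icKO level. Tnni3, cardiac troponin I, went from 2694 to 628 RPKM (-2.12) and Tnnt1 from 8.41 to 1.76 RPKM (-2.17). SRF and the cofactors listed with it (11 symbols, 9 found and tested) showed 0 higher and 1 lower at E10.5, against 0.864% and 3.45% of all genes. The limma count called there was 0 in either direction, where 0.239% of all genes were called higher and 0.542% lower. In adult cells 4 rose and 2 fell, again against 60.6% and 18.1%. Srf went from 18.3 ± 2.11 to 39.6 ± 4.14 RPKM (SD, n = 3, log2 fold change 1.11) and Mkl1, an actin-sensing SRF coactivator, from 0.973 to 2.79 RPKM (1.42). Both were called higher as deposited (28.0% of all genes) and neither was with median-ratio scaling (11.3% of all genes). Tbx5, a cardiac T-box factor, went from 8.17 to 2.51 RPKM (-1.65).

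By the likeness of their pattern over the 12 samples, each table centred on its own mean, the genes nearest to Actc1 were Grb14 (Pearson r 0.986), Nbn (0.982) and Psmg1 (0.978). Nearest to Tpm1 were Cox4i1 (0.958), Ndufb9 (0.957) and Ndufb8 (0.954), which encode subunits of the respiratory chain. Acta1 was followed less closely, by Sorl1 (0.872), Cpne1 (0.865) and Ehbp1 (0.852), and Acta2 by Bcl2l1 (0.886), Smo (0.863) and Rtl6 (0.823). The points share their libraries and the scaling of their table, and the values describe 8900 genes that were ranked without a test.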

How the data were processed

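RNA was sequenced as ribosome-depleted total RNA from 12 samples, 3 per group. Per the labels, the authors' tools were cutadapt 2.6, STAR 2.5.3a, HOMER 4.11.1 and DESeq2 1.12.4 with mm10. The authors deposited RPKM per gene, and what RPKM were scaled to and which annotation was used are not given in the sources used here. The deposited columns of mean RPKM, log2 fold change and FDR hold the authors' own comparison and were not used.

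The stages were fitted separately in limma 3.58.1 (R 4.3.3, lmFit and eBayes with trend, two-sided) after taking log2(RPKM + 0.1). Genes entered a fit where the mean of its samples exceeded 1 RPKM, with Benjamini-Hochberg adjustment over all of them. A gene under 1 RPKM in either group entered only through the other. Genes low in Ctrl were thus tested only where the knockout level was higher, in the lists and over all genes. In the adult this held for Tpm2, Cnn1, Cald1, Tnnt3, Neb and Mkl1, and for Pdgfrb among the mural cell markers. Adding 0.1 understates the change of low genes. A gene rose or fell at an adjusted p under 0.05, and was called where the log2 fold change was also beyond 1 in size. The count test of the study needs read counts and was replaced by limma. Ratios and shares were tested with exact two-sided permutation tests over samples, and the stage difference with a limma contrast. Depth is an estimate: 56.5% to 59.8% of low RPKM values lay within 0.1 of a whole read. Nothing in the labels says that samples are separate animals, so p-values measure the spread between these samples. No replicate files were identical. Transcripts were taken from GENCODE M21 and promoters from RefSeq (GRCm38.p6), with 8 of the 10 members matched there. The scripts were tested on simulated data (Python 3.11.15, Biopython 1.88, scipy 1.17.1).

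The members and gene lists were chosen with earlier results of these data known. Named genes are the members, Med30, up to 4 called genes per related list and stage with the largest change, the 3 genes most similar in pattern to Acta1, Acta2, Actc1 and Tpm1, and markers. The alternatives tried were other pseudocounts, filters, scalings, sample weights, a fit without trend, the replicate number as a block and leaving out each sample. The endothelial (8 genes), epicardial (5) and macrophage (6) marker sums were 11.5 to 24.6, 0.991 to 2.71 and 2.06 to 2.96 RPKM in adult Ctrl and 26.0 to 38.4, 1.70 to 3.68 and 5.45 to 6.78 RPKM in icKO. At E10.5 they were 144 to 199, 39.8 to 45.9 and 2.32 to 2.93 RPKM in Ctrl and 171 to 185, 30.9 to 45.5 and 1.92 to 2.69 RPKM in cKO.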

Additional observations from a re-analysis of the deposited data

Results flagged for a closer look

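For 6 members the knockout effect differed between the stages in the limma fit of all 12 samples, as did that of 68.7% of all genes, whose median difference was 0.69. On the log2 scale the adult effect minus the E10.5 effect was 3.04 for Tpm2 (adjusted p = 8.50e-06), 1.92 for Tpm3 (adjusted p = 7.72e-06) and 1.32 for Tpm4 (adjusted p = 0.00588). For Actb it was 0.71 (adjusted p = 0.0123). For Actg1 it was -0.77 (adjusted p = 0.00534), and for Acta2 -0.75 (adjusted p = 0.0373). Relative to the median of all genes these values were 2.34, 1.22, 0.63, 0.02, -1.46 and -1.44. With median-ratio scaling the difference for Actb was 0.053 (limma adjusted p = 0.835) and that for Tpm4 0.68 (limma adjusted p = 0.144), and neither passed under any of the 4 other scalings, with limma adjusted p-values of 0.208 to 0.934 for Actb and 0.0570 to 0.188 for Tpm4. That for Acta2 did not pass in 6 of the 12 fits that left out 1 sample, with limma adjusted p-values of 0.0601 to 0.104.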

How the results depend on the processing

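The Acta1 rise at E10.5 and the adult changes of Actg1, Tpm2 and Tpm3 kept their direction under all alternatives in which they were tested. Members called higher at E10.5 numbered 1. There were 2 (Acta1 and Tpm2) under each of the 4 other scalings, 0 with no RPKM filter (Acta1 adjusted p = 0.0996, limma), and 1 to 2 with a sample left out, 2 without cKO replicate 1. Called lower in the adult were 2, both close to the fold limit. There was 1 with a pseudocount of 1 (Actc1), and 1 (Actg1) with no filter, with quantile normalization and with sample weights, and 1 to 2 with a sample left out. It was 1 without any single Ctrl sample and without icKO replicate 1 or 3. Called higher in the adult were 3, and 0 when the mean RPKM had to exceed 5, which removed the minor tropomyosins. There were 2 (Tpm2 and Tpm3) with median-ratio, quantile and top-200 scaling, a pseudocount of 1 and no filter, 4 (with Acta1) with sample weights, and 2 to 4 with a sample left out, 4 without Ctrl replicate 3 and 2 without Ctrl replicate 1. The Acta1 to Actc1 log2 ratio was 1.39 (E10.5) and 0.99 (4 weeks) with quantile normalization.

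Quantile normalization, which fixes values by rank, also turned E10.5 Actc1 (0.20), the E10.5 Actb and cytoplasmic shares (-0.264 and -0.612 points), the summed E10.5 actins (816 RPKM), adult Actc1 (0.068), adult Tpm1 (0.73), the striated and Tpm4 shares in the adult (0.565 and -0.000167 points), the summed adult actins and tropomyosins (334 and 1978 RPKM) and the stage difference of Tpm1 (0.60). Results whose groups overlapped turned with it as well. Among them were the adult Acta2 to Actc1 log2 ratio (-0.92) and the adult Acta2 and smooth muscle shares (-0.607 and -0.605 points). The E10.5 Tpm3 share (-0.0649 points) and the summed E10.5 tropomyosins (94.4 RPKM) were others. Values near 0 at E10.5 changed sign. With median-ratio, quantile and both top-gene scalings in turn, Tpm1 was 0.0040, 0.12, 0.059 and 0.031, Tpm3 0.091, 0.13, 0.15 and 0.12, and Tpm4 0.040, 0.15, 0.096 and 0.067 (0.015 with sample weights). With a sample left out, Tpm1 ranged from -0.22 to 0.0019 (above 0 without Ctrl replicate 1), Tpm3 from -0.13 to 0.062 (above 0 without Ctrl replicate 1 or cKO replicate 1) and Actb from -0.024 to 0.15 (below 0 without Ctrl replicate 2 or cKO replicate 3). The stage difference of Acta1 was 0.0059 with sample weights and ranged from -0.71 to 0.35 with a sample left out (0.35 without adult Ctrl replicate 3, 0.023 without icKO replicate 1). Apart from these rank and scaling effects, the cause was not tested.

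Same-numbered samples did not deviate together (correlations -0.070 to 0.101 at E10.5 and 0.043 to 0.153 in the adult, and not every sample correlated best with its own number). With the replicate block, all genes called numbered 61 lower and 32 higher at E10.5 (59 and 26 without the block) and 805 and 2672 in the adult (804 and 2668). Members called with the block were 1 higher at E10.5, and 2 lower and 4 higher in the adult, where Acta1 joined. The limma adjusted p with the replicate block was 0.0367 for adult Acta1, 0.0562 for adult Tpm1 and 0.0513 for the stage difference of Acta2, which crossed the threshold. Over all genes, called counts lower and higher at E10.5 ranged from 1 and 0 without a filter to 102 and 36 without cKO replicate 3. In the adult, median-ratio scaling moved them to 1518 and 1078.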
